A study of Homo sapiens with 12 samples.

Results

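The genes of fatty acid oxidation, of ketone body formation and of the PPARA target programme were followed in HepG2 cells, 35 of the 35810 genes for which counts could be summed. They were taken by name from a list that covers the activation of fatty acids, their transport into mitochondria, the mitochondrial and peroxisomal breakdown steps, electron transfer, a ketone body enzyme and liver genes that PPARA switches on. The members were chosen with earlier results of these data known. Of the 35 genes, 33 passed the filter on low counts and were tested. CYP4A11, a fatty acid hydroxylase, had 0 counts in all 12 libraries, where a count of 0 allows a level of up to 0.103 to 0.148 CPM (counts scaled to the size of the library) depending on the library. PDK4, the kinase that shuts down pyruvate dehydrogenase, was below the filter, with 1 count over the 3 ARID1B-KO libraries given sorafenib, 1 over those given DMSO, 9 over the wild-type libraries given sorafenib and 15 over those given DMSO.

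Fatty acids are first bound to coenzyme A by acyl-CoA synthetases. Long chains then cross into mitochondria as carnitine esters and are shortened in repeated cycles of oxidation, hydration, oxidation and thiolysis, and in the liver much of the acetyl-CoA formed leaves as ketone bodies. Peroxisomes shorten very long and branched chains by a parallel set of enzymes, and the nuclear receptor PPARA, paired with RXRA, raises the transcription of many of these genes in hepatocytes when fatty acids are plentiful.

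HepG2 is an established human cell line from a liver tumour. The groups were ARID1B-KO cells, in which ARID1B (a subunit of the BAF chromatin remodelling complex) had been targeted with CRISPR/Cas9, given sorafenib or DMSO, and wild-type cells given sorafenib or DMSO, each of these 4 groups having 3 biological replicates. Sorafenib, an inhibitor of RAF and growth factor receptor kinases, was used at 5 µM for 48 h, the vehicle was 0.1% DMSO by volume, and all cells were grown in the same medium with serum. The labels do not give the number of knockout clones, and p-values measure the spread between these replicates. ARID1B itself was at 35.6, 25.9 and 26.5 CPM in ARID1B-KO cells with sorafenib, against 67.5, 69.1 and 62.3 CPM in wild-type cells with sorafenib. With DMSO it was at 26.4, 28 and 27.6 CPM in ARID1B-KO cells, against 58.4, 61.9 and 66.7 CPM in wild-type cells. The transcript was lower in every knockout library, with a log2 fold change of -1.18 ± 0.11 (SE) with sorafenib and -1.19 ± 0.11 with DMSO, but was not absent.

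Libraries held 19739582 to 29398257 estimated counts, and 6.55% to 11.92% of the counts of a library fell on mitochondrially encoded genes. All 8 markers of hepatocytes and liver tumour lines had counts in every group, with a summed level of 117537 to 183492 CPM in ARID1B-KO cells with sorafenib, against 90904 to 109644 CPM in ARID1B-KO cells with DMSO, and 97448 to 106317 CPM in wild-type cells with sorafenib, against 79652 to 89346 CPM in wild-type cells with DMSO. They did not move together: with sorafenib 4 passed the test as higher in each genotype, APOB was lower in both (log2 fold change ± SE of -0.85 ± 0.23 in ARID1B-KO and -0.67 ± 0.22 in wild-type cells), and TTR was lower in wild-type cells (-0.90 ± 0.12). The defining markers PTPRC (leukocytes), COL1A2 and DCN (fibroblasts) and KDR (endothelium) were at 0 in all 4 groups, although LYZ, on the leukocyte list of 5, was at 506 ± 62.5 CPM in ARID1B-KO cells with sorafenib, against 2018 ± 355 CPM with DMSO, and at 862 ± 55 CPM in wild-type cells with sorafenib, against 3868 ± 225 CPM with DMSO (mean ± SD, n = 3). Without LYZ, the leukocyte list summed to 2.336 to 3.972 CPM over the 12 libraries. The 5 fibroblast markers summed to 0.889 to 1.641 CPM in ARID1B-KO cells with sorafenib, against 2.645 to 4.469 CPM with DMSO, and to 3.193 to 4.595 CPM in wild-type cells with sorafenib, against 13.79 to 22.07 CPM with DMSO. The 4 endothelial markers summed to 7.012 to 10.65 CPM in ARID1B-KO cells with sorafenib, against 2.933 to 6.704 CPM with DMSO, and to 2.906 to 4.144 CPM in wild-type cells with sorafenib, against 1.164 to 1.949 CPM with DMSO. By the test, LYZ and PDGFRB fell and CDH5 rose with sorafenib in both genotypes. LYZ and PDGFRB were also lower, and CDH5 and VWF higher, in ARID1B-KO than in wild-type cells under both treatments. Markers of all 4 lists thus moved with the treatment or the genotype, and their part in the results on fatty acid genes was not tested. In RNA from a whole culture, fewer cells of a kind and less RNA per cell cannot be told apart.

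Sorafenib raised most of the fatty acid oxidation genes in both genotypes, by moderate amounts. In ARID1B-KO cells 24 members rose and 1 fell among the 33 tested, at an adjusted p under 0.05 in edgeR's quasi-likelihood test. In that comparison 46.7% of all 12821 genes tested were called, 23% as higher and 23.7% as lower. In wild-type cells 24 members rose and 2 fell, where 35.4% of all genes were called, 17.5% as higher and 18% as lower. The median log2 fold change of the tested members was 0.57 in ARID1B-KO cells and 0.50 in wild-type cells, beside 0.01 and -0.01 over all genes in these comparisons. The ranges of the sorafenib and DMSO libraries did not overlap for 26 members in ARID1B-KO cells, where 52.9% of all genes did not overlap, and for 26 in wild-type cells, where 50.8% did not.

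By name, 22 members rose in both genotypes. They include 2 of the 3 acyl-CoA synthetases, the carnitine carrier SLC25A20, all 5 enzymes of the later steps of the mitochondrial cycle, 3 of the 4 enzymes for unsaturated acids, 3 of the 4 peroxisomal enzymes and both thioesterases. ACSL3 fell in both. CPT1A and ECI1 passed the test for a rise in wild-type cells alone and ACADM and BDH1 in ARID1B-KO cells alone, and VNN1 passed it for a fall in wild-type cells alone. CPT2, ACADVL, ETFA, HSD17B4 and PLIN2 passed in neither genotype. Because a call in 1 genotype and not in the other is no test of a difference, the difference between the responses was tested separately and is given further on.

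**Figure D1:**
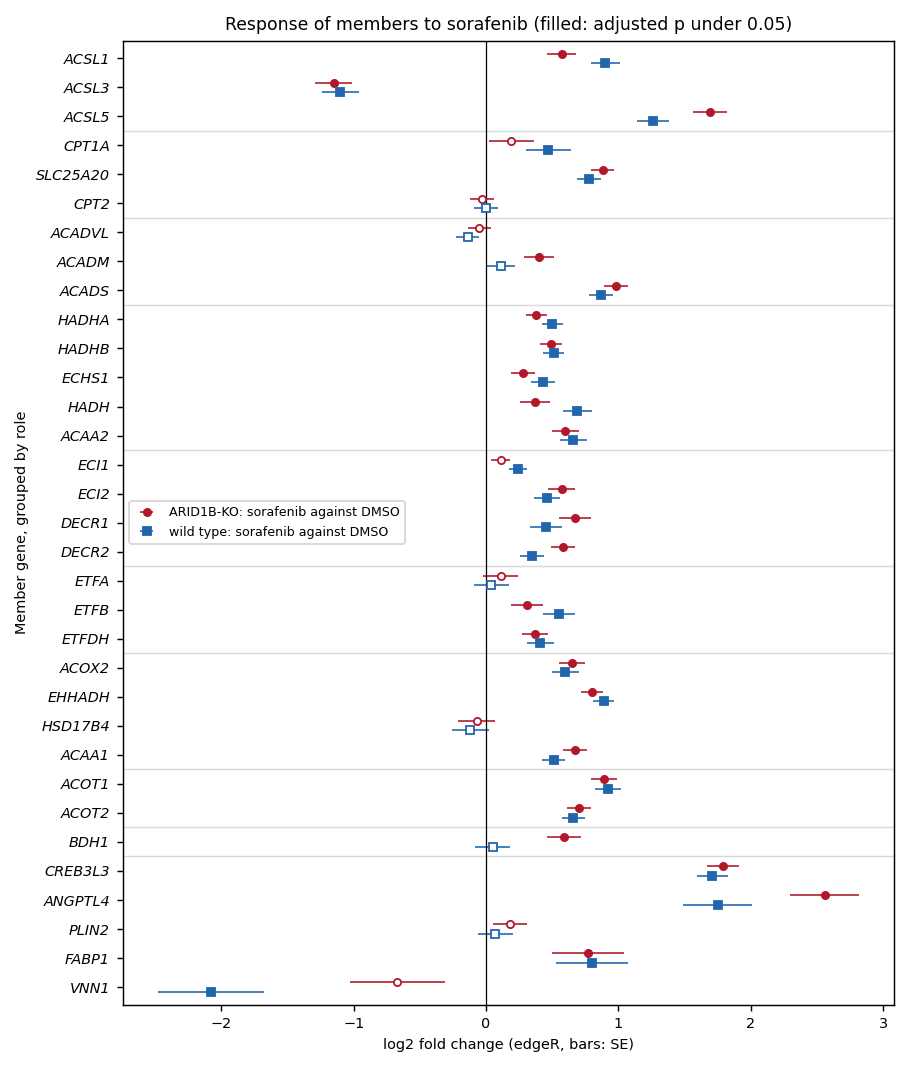
Log2 fold change of sorafenib against DMSO for the 33 tested members (x axis), grouped by role (y axis), in ARID1B-KO cells (circles) and wild-type cells (squares). Bars are SE, and filled symbols have an adjusted p under 0.05. Most symbols lie to the right of 0, with ACSL3 and VNN1 to the left and ANGPTL4 farthest to the right at 2.56 in ARID1B-KO cells.

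The 3 acyl-CoA synthetases, which load fatty acids onto coenzyme A, moved in opposite directions. ACSL5, found on mitochondria and the endoplasmic reticulum, was at 230.3, 204 and 174 CPM in ARID1B-KO cells with sorafenib, against 68.5, 68.5 and 51.5 CPM with DMSO. In wild-type cells it was at 198, 197 and 177 CPM with sorafenib, against 80.5, 75.6 and 82.5 CPM with DMSO. Every sorafenib library lay above every DMSO library, and the log2 fold changes were 1.69 ± 0.13 (SE) in ARID1B-KO cells and 1.26 ± 0.12 in wild-type cells, with adjusted p of 4.53e-07 and 7.17e-06 in edgeR. ACSL3, which supplies acyl-CoA for lipid droplets, was at 337, 299.5 and 233 CPM in ARID1B-KO cells with sorafenib, against 688, 679.9 and 558 CPM with DMSO. In wild-type cells ACSL3 was at 266, 277 and 239 CPM with sorafenib, against 506, 593 and 574 CPM with DMSO. Here every sorafenib library lay below every DMSO library of its genotype, and the log2 fold changes were -1.15 ± 0.14 and -1.10 ± 0.14 (edgeR, adjusted p 2.4e-05 and 5.52e-05). ACSL1, the main synthetase of liver, averaged 56.4 ± 6.49 CPM in ARID1B-KO cells with sorafenib, against 37.9 ± 3.84 CPM with DMSO (SD, n = 3), which came to 0.57 ± 0.11 on the log2 scale. In wild-type cells ACSL1 averaged 81.5 ± 7.06 CPM with sorafenib, against 43.8 ± 3.7 CPM with DMSO, or 0.90 ± 0.11 on that scale, and it passed the test in both genotypes.

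The carnitine shuttle was uneven. CPT1A, the outer-membrane transferase that limits the entry of long-chain acids into mitochondria, was at 14.7, 11.5 and 10.6 CPM in ARID1B-KO cells with sorafenib, against 12.9, 10.7 and 8.56 CPM with DMSO. In wild-type cells CPT1A was at 18.6, 23.9 and 20 CPM with sorafenib, against 12.8, 16.7 and 15.8 CPM with DMSO. The groups overlapped in ARID1B-KO cells (log2 fold change 0.19 ± 0.17, adjusted p 0.393 in edgeR) and did not in wild-type cells (0.47 ± 0.17, adjusted p 0.0472). The length offset is a fit that accounts for the mean length of the transcripts counted in each library, and the replicate block a fit with the replicate number as a term. The wild-type call of CPT1A was lost with DESeq2's size factors, without the filter, with the length offset or with the replicate block, at an adjusted p of 0.0504 to 0.147. It was also lost without any of the wild-type libraries, or without replicate 2 of ARID1B-KO with DMSO or with sorafenib, at 0.0501 to 0.176. SLC25A20, the carrier that brings acylcarnitines across the inner membrane, averaged 38 ± 2.17 CPM in ARID1B-KO cells with sorafenib, against 20.6 ± 1.43 CPM with DMSO, and 28.6 ± 1 CPM in wild-type cells with sorafenib, against 16.6 ± 1.15 CPM with DMSO. It rose by a log2 fold change of 0.88 ± 0.09 in ARID1B-KO cells and 0.78 ± 0.09 in wild-type cells. CPT2, the inner transferase that returns the acyl group to coenzyme A, had log2 fold changes of -0.03 ± 0.09 and 0.00 ± 0.09, with no call in either genotype.

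Among the acyl-CoA dehydrogenases, which take the first oxidation step, ACADS rose in both genotypes, ACADM in ARID1B-KO cells alone and ACADVL in neither. ACADS, for short chains, was at 55.2, 54.5 and 58.3 CPM in ARID1B-KO cells with sorafenib, against 30.7, 24.9 and 29.8 CPM with DMSO. It was at 47.3, 48.7 and 53.1 CPM in wild-type cells with sorafenib, against 27, 28.2 and 26.2 CPM with DMSO. No ACADS group overlapped between sorafenib and DMSO, with log2 fold changes of 0.98 ± 0.09 and 0.87 ± 0.09 (edgeR, adjusted p 2.48e-06 and 9.86e-06). ACADM, for medium chains, averaged 94.7 ± 9.09 CPM in ARID1B-KO cells with sorafenib, against 71.5 ± 6.52 CPM with DMSO, a rise of 0.40 ± 0.11 with an adjusted p of 0.00972 in edgeR. In wild-type cells its log2 fold change was 0.11 ± 0.11 (adjusted p 0.466). ACADVL, for very long chains, had log2 fold changes of -0.05 ± 0.09 in ARID1B-KO cells and -0.14 ± 0.09 in wild-type cells, and passed in neither.

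HADHA and HADHB, the subunits of the mitochondrial trifunctional protein that carries out the later steps on long chains, rose together. HADHA averaged 485 ± 3.69 CPM in ARID1B-KO cells with sorafenib, against 371 ± 10.8 CPM with DMSO, and 432 ± 10.8 CPM in wild-type cells with sorafenib, against 304 ± 7.52 CPM with DMSO (SD, n = 3). HADHB averaged 289.9 ± 18.2 CPM in ARID1B-KO cells with sorafenib, against 206 ± 7.36 CPM with DMSO, and 269.5 ± 8.45 CPM in wild-type cells with sorafenib, against 189 ± 9.98 CPM with DMSO. Log2 fold changes were 0.38 ± 0.08 and 0.50 ± 0.08 for HADHA and 0.49 ± 0.08 and 0.51 ± 0.08 for HADHB, in ARID1B-KO and wild-type cells in that order, and all passed the test. The other 3 enzymes of the later steps rose as well in both genotypes. ECHS1, the short-chain enoyl-CoA hydratase, rose by 0.28 ± 0.09 in ARID1B-KO cells and 0.43 ± 0.09 in wild-type cells. HADH, the short-chain hydroxyacyl-CoA dehydrogenase, rose by 0.37 ± 0.11 and 0.69 ± 0.11, and ACAA2, the mitochondrial thiolase, by 0.60 ± 0.10 and 0.66 ± 0.10. ECHS1 in ARID1B-KO cells was no longer called when these cells were fitted alone (adjusted p 0.0608 in edgeR) or without their sorafenib replicate 3 (0.069), and HADH was not called there without that library (0.0624) or without DMSO replicate 2 (0.0535). Of the main ACAA2 transcript, 27% of the 75-base windows also occur in other genes, among them the pseudogene ACAA2P1, so its level is less certain.

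HADHA and HADHB lie head to head on chromosome 2 (GRCh38), HADHA at 26190635 to 26244672 on the minus strand and HADHB at 26243170 to 26290465 on the plus strand, and their annotations overlap. Whether counting used the strand is not stated, and without it reads from the overlap cannot be told apart. The promoters are shown because both genes rose with sorafenib in both genotypes and share this region. The other enzymes of the later steps rose as well, so the joint rise is not particular to this pair. In ARID1B-KO cells the larger estimated share of HADHB fell on HADHB-209, a transcript annotated from base 26261021 onward, outside the windows shown. The RefSeq starts, in the GRCh38.p14 promoter table, lie 307 bases apart, and the windows from 250 bases before to 50 bases after each start share 194 bases (26244689 to 26244882), which were identical once one was reverse complemented. The windows were chr2:26244583-26244882 on the minus strand for HADHA and chr2:26244689-26244988 on the plus strand for HADHB. Capitals mark the GC box GGGCGG, sought on both strands.
HADHA: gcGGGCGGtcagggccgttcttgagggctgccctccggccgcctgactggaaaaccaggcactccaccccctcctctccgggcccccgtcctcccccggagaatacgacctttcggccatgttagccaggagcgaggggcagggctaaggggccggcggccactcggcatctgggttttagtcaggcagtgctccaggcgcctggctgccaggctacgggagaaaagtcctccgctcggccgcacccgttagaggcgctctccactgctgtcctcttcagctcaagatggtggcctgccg
HADHB: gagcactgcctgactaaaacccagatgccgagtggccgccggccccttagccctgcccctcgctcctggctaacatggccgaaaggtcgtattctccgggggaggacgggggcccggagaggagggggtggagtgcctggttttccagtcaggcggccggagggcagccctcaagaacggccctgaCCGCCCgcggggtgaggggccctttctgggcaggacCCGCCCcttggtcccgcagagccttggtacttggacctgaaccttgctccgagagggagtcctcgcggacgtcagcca
In the HADHA window the box began at position -248 from the start, counted as 0, and in the HADHB window boxes began at -64 and -28. The HADHA box and the HADHB box at -64 are the same bases, which begin at 26244875. The box stood in 23 of 37 windows of members (62.2%) and in 45% of all 35116 promoter windows of the table. A match of letters is a description of the window and shows no binding.

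For the enzymes that bring unsaturated acids into the cycle, the called rises lay between 0.24 and 0.67 on the log2 scale. ECI2, an enoyl-CoA isomerase, rose by 0.57 ± 0.10 in ARID1B-KO cells and 0.46 ± 0.10 in wild-type cells. DECR1, the mitochondrial dienoyl-CoA reductase, rose by 0.67 ± 0.12 and 0.45 ± 0.12, and DECR2, its peroxisomal counterpart, by 0.58 ± 0.09 and 0.35 ± 0.09. ECI1, the other isomerase, had a log2 fold change of 0.11 ± 0.07 in ARID1B-KO cells (adjusted p 0.223 in edgeR) and rose by 0.24 ± 0.07 in wild-type cells (adjusted p 0.0214). That last call was lost without wild-type DMSO replicate 2 or 3 or without wild-type sorafenib replicate 3 (0.0687 to 0.0942) and, like the wild-type call of DECR2, with the length offset (0.0773 for ECI1 and 0.12 for DECR2). DECR2 shares 22.5% of its 75-base windows with NME4, whose annotation overlaps it.

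Electrons from these dehydrogenases pass through the electron transfer flavoprotein, made of ETFA and ETFB, to ubiquinone by way of ETFDH. ETFDH rose by 0.37 ± 0.10 in ARID1B-KO cells and 0.41 ± 0.10 in wild-type cells, and the wild-type call was lost with the length offset (adjusted p 0.119 in edgeR). ETFB rose by 0.31 ± 0.12 and 0.55 ± 0.12, whereas ETFA, at 0.11 and 0.04 with an SE of 0.13 in both, did not pass the test. The ETFB call in ARID1B-KO cells (adjusted p 0.045 in edgeR) was lost with the length offset (0.171), with only these groups in the fit (0.0791), and without any of 7 libraries: wild-type DMSO replicates 2 and 3, wild-type sorafenib replicates 1 and 3, ARID1B-KO DMSO replicates 1 and 2 or ARID1B-KO sorafenib replicate 3 (0.0527 to 0.185). An unnamed readthrough gene shares 33.1% of the ETFB windows.

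Peroxisomal breakdown was raised in 3 of its 4 members. EHHADH, the classical bifunctional enzyme and a well known PPARA target, averaged 96.7 ± 8.65 CPM in ARID1B-KO cells with sorafenib, against 55.5 ± 4.67 CPM with DMSO, and 98 ± 1.52 CPM in wild-type cells with sorafenib, against 52.8 ± 1.56 CPM with DMSO (SD, n = 3). Its log2 fold changes were 0.80 ± 0.08 and 0.89 ± 0.08. ACAA1, the peroxisomal thiolase, rose by 0.67 ± 0.09 and 0.51 ± 0.09, and ACOX2, the oxidase for branched chains and bile acid intermediates, by 0.65 ± 0.10 and 0.60 ± 0.10. With the length offset the ACOX2 values were 0.38 and 0.25 and were no longer called (adjusted p 0.0693 and 0.258 in edgeR). HSD17B4, the second bifunctional enzyme, had log2 fold changes of -0.07 ± 0.14 and -0.12 ± 0.14 and passed in neither genotype.

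The thioesterases, which split acyl-CoA into free acid and coenzyme A, rose in both genotypes. ACOT1, the cytosolic enzyme, was at 94.2, 96.1 and 102 CPM in ARID1B-KO cells with sorafenib, against 44.1, 56.5 and 57.2 CPM with DMSO. In wild-type cells ACOT1 was at 85.5, 74.5 and 79.8 CPM with sorafenib, against 44.3, 39.8 and 42.8 CPM with DMSO. The sorafenib libraries were all above the DMSO libraries, with log2 fold changes of 0.89 ± 0.10 and 0.92 ± 0.10 (edgeR, adjusted p 1.44e-05 and 1.86e-05). ACOT2, the mitochondrial enzyme, was at 131, 145 and 144 CPM in ARID1B-KO cells with sorafenib, against 76.3, 91.1 and 90.2 CPM with DMSO. In wild-type cells ACOT2 was at 126, 121 and 126 CPM with sorafenib, against 86.2, 73.8 and 76.6 CPM with DMSO, and its groups did not overlap either, with log2 fold changes of 0.70 ± 0.09 and 0.66 ± 0.09. ACOT1 and ACOT2 lie close together on chromosome 14, and 42.1% of the 75-base windows of ACOT1 and 45.8% of those of ACOT2 occur in the other gene, so the division of reads between them is uncertain. Counted together they still rose with sorafenib in both genotypes.

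BDH1, which interconverts acetoacetate and hydroxybutyrate, the ketone bodies, was at 28.9, 19.9 and 24.8 CPM in ARID1B-KO cells with sorafenib, against 15.3, 16.3 and 17.5 CPM with DMSO. In wild-type cells BDH1 was at 13.6, 17 and 16.5 CPM with sorafenib, against 15.8, 15.6 and 14.1 CPM with DMSO. The 3 ARID1B-KO libraries with sorafenib were the highest of all 12, and the wild-type groups overlapped. The log2 fold change was 0.59 ± 0.13 in ARID1B-KO cells (adjusted p 0.00308 in edgeR) and 0.05 ± 0.13 in wild-type cells. With the length offset, the ARID1B-KO value was 0.39 ± 0.19 and was not called (0.141).

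Of the further PPARA targets, ANGPTL4 and CREB3L3 rose most. ANGPTL4, a secreted inhibitor of lipoprotein lipase, was at 8.38, 6.42 and 5.92 CPM in ARID1B-KO cells with sorafenib, against 1.19, 1.44 and 0.866 CPM with DMSO. In wild-type cells ANGPTL4 was at 3.87, 4.26 and 4.94 CPM with sorafenib, against 1.75, 1.12 and 0.974 CPM with DMSO. It was a low gene, with 459, 75, 315 and 101 counts in these groups of 3 libraries in that order, yet every sorafenib library lay above every DMSO library, and the log2 fold changes were 2.56 ± 0.26 and 1.75 ± 0.26 (edgeR, adjusted p 6.76e-06 and 0.000186). CREB3L3, a membrane-bound liver transcription factor that acts with PPARA on lipid genes, was at 83.1, 66.2 and 58.8 CPM in ARID1B-KO cells with sorafenib, against 22.1, 19.5 and 18.5 CPM with DMSO. In wild-type cells CREB3L3 was at 36.7, 40 and 39 CPM with sorafenib, against 11.6, 12.7 and 11.2 CPM with DMSO. The groups were far apart in both genotypes, with log2 fold changes of 1.79 ± 0.12 and 1.71 ± 0.12 and adjusted p of 2.31e-07 and 6.02e-07 in edgeR.

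FABP1, the liver fatty acid-binding protein, was at 172, 135 and 251 CPM in ARID1B-KO cells with sorafenib, against 81.2, 106 and 140.5 CPM with DMSO. In wild-type cells FABP1 was at 455, 378 and 408 CPM with sorafenib, against 319.8, 224 and 169 CPM with DMSO. The ranges overlapped in ARID1B-KO cells and not in wild-type cells, and the log2 fold changes of 0.77 ± 0.27 and 0.80 ± 0.27 were close to the threshold (edgeR, adjusted p 0.0371 and 0.0392). Both calls were lost without the filter, with the length offset or with the replicate block, at adjusted p of 0.0533 to 0.0728. In ARID1B-KO cells the call was also lost without DMSO replicate 1 or 2 or sorafenib replicate 1 or 3, where the log2 fold change was as low as 0.49 (adjusted p 0.0579 to 0.168). In wild-type cells it was lost without DMSO replicate 2 or 3, without any sorafenib replicate, or without ARID1B-KO sorafenib replicate 1 (0.0509 to 0.12).

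VNN1, the pantetheinase that releases cysteamine in coenzyme A turnover, was at 1.18, 1.19 and 0.988 CPM in ARID1B-KO cells with sorafenib, against 1.71, 1.98 and 1.68 CPM with DMSO. In wild-type cells VNN1 was at 0.466, 0.0957 and 0.335 CPM with sorafenib, against 1.27, 1.4 and 1.27 CPM with DMSO. Sorafenib libraries were below DMSO libraries in both genotypes, but the gene had as few as 23 counts over the 3 wild-type libraries with sorafenib. In ARID1B-KO cells the log2 fold change was -0.67 ± 0.36 (adjusted p 0.147 in edgeR), and in wild-type cells VNN1 fell, at -2.08 ± 0.40 (adjusted p 0.00149). PLIN2, the coat protein of lipid droplets, passed in neither genotype, with log2 fold changes of 0.18 ± 0.13 in ARID1B-KO cells and 0.07 ± 0.13 in wild-type cells.

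**Figure D2:**
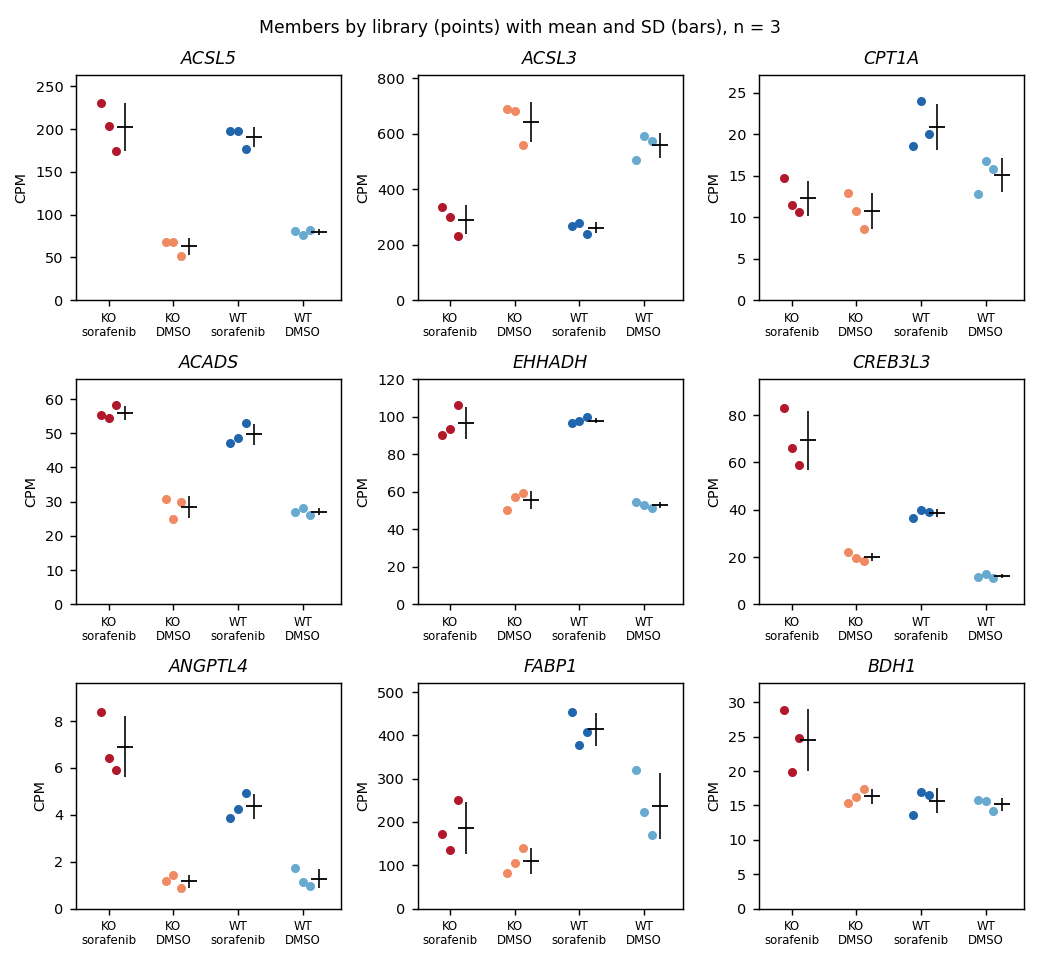
Level of 9 members in CPM (y axis, from 0) in each library (points), with the mean and SD of 3 libraries (bars), for ARID1B-KO (KO) and wild-type (WT) cells with sorafenib or DMSO. ACSL5, ACADS, EHHADH, CREB3L3 and ANGPTL4 are higher with sorafenib in both genotypes, ACSL3 is lower, and the highest BDH1 libraries are those of ARID1B-KO with sorafenib.

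Promoter windows are shown for the members with the largest rises (ANGPTL4, CREB3L3), the fall common to both genotypes (ACSL3) and the largest difference between genotypes with DMSO (FABP1). RefSeq windows were matched for 26 of the 35 members, 37 windows in all. They were not matched for ACAA1, ACOT1, ACOX2, CYP4A11, DECR1, DECR2, EHHADH, ETFDH and VNN1. The windows were chr19:8363905-8364204 on the plus strand for ANGPTL4, chr19:4153381-4153680 on the plus strand for CREB3L3, chr2:222860786-222861085 on the plus strand for ACSL3 and chr2:88128013-88128312 on the minus strand for FABP1, in GRCh38.p14. Capitals mark every match, on either strand, to the TATA box TATAAA, the CCAAT box CCAAT, the GC box GGGCGG and the direct repeat AGGNCANAGGNCA, the kind of repeat that PPARA and RXRA bind, N being any base.
ANGPTL4: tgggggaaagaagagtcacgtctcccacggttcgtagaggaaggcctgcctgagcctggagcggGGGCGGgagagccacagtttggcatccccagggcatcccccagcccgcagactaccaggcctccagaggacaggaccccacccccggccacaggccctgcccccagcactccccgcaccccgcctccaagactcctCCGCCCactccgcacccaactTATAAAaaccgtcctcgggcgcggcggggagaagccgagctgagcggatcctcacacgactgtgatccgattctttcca
CREB3L3: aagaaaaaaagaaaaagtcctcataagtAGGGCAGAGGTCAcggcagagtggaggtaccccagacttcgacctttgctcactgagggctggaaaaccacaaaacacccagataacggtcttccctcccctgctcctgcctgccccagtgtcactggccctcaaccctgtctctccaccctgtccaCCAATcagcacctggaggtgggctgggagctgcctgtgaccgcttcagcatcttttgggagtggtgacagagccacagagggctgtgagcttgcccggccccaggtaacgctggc
ACSL3: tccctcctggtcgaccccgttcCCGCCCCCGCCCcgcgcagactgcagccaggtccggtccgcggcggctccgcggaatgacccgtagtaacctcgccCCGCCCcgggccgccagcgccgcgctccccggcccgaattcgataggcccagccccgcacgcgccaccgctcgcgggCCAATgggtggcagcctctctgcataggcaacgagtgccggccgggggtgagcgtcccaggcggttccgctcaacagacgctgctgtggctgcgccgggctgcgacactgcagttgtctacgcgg
FABP1: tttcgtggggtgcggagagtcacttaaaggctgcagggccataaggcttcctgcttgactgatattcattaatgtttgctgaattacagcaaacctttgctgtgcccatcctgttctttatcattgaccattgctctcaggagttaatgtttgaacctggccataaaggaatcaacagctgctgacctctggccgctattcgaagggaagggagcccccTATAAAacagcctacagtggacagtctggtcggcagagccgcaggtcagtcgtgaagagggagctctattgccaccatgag
The TATA box began at -29 from the start in ANGPTL4 and at -31 in FABP1, and stood in 5 of the 37 member windows (13.5%) and in 11.5% of all 35116 windows. The ANGPTL4 window also held GC boxes at -186 and -50. The direct repeat was found at -222 in CREB3L3, as AGGGCAGAGGTCA, and in no other member window, 1 of 37 (2.7%) beside 0.31% of all windows, and the same window held CCAAT at -65. Without the free inner bases, as AGGTCANAGGTCA, it stood in 0 member windows and in 0.0228% of all. The ACSL3 window held CCAAT at -75 and GC boxes at -228, -222 and -152. CCAAT stood in 7 member windows (18.9%) and in 34.6% of all. No match overlapped another in the windows shown (0 pairs), and a window without a match says nothing of the factor.

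Per length of transcript, the members spanned a wide range. The highest in wild-type cells with DMSO was FABP1 at 795 ± 223 TPM (transcript abundance scaled for length and library size, mean ± SD, n = 3), followed by ACSL3 at 483 ± 78.2 TPM, HSD17B4 at 334 ± 44.5 TPM and ETFA at 315 ± 9.14 TPM. The libraries of HSD17B4 and ETFA overlapped, so these 2 have no clear order. At the low end stood CPT1A at 2.51 ± 0.187 TPM, VNN1 at 0.602 ± 0.0507 TPM and ANGPTL4 at 0.329 ± 0.107 TPM. The entry enzyme CPT1A was thus below the enzymes of the cycle, which themselves differed widely. Among these, HADHB was at 161 ± 1.79 TPM and ACADM at 87.4 ± 5.24 TPM, but ACADS was at 7.19 ± 0.135 TPM. Summed over the members, the level was 3402, 3651 and 4422 TPM in ARID1B-KO cells with sorafenib, against 3254, 3472 and 3729 TPM with DMSO. In wild-type cells the sum was 4289, 3916 and 4348 TPM with sorafenib, against 3655, 3362 and 3238 TPM with DMSO. The sums overlapped in ARID1B-KO cells and did not in wild-type cells. FABP1 and ACSL3 weighed heavily in them. FABP1 averaged 627 TPM with sorafenib against 412 TPM with DMSO in ARID1B-KO cells, and 1326 against 795 TPM in wild-type cells. ACSL3 averaged 232 against 615 TPM in ARID1B-KO cells and 214 against 483 TPM in wild-type cells. The sums thus say little of the other members, and a difference between the genotypes in the sums was not tested.

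**Figure D3:**
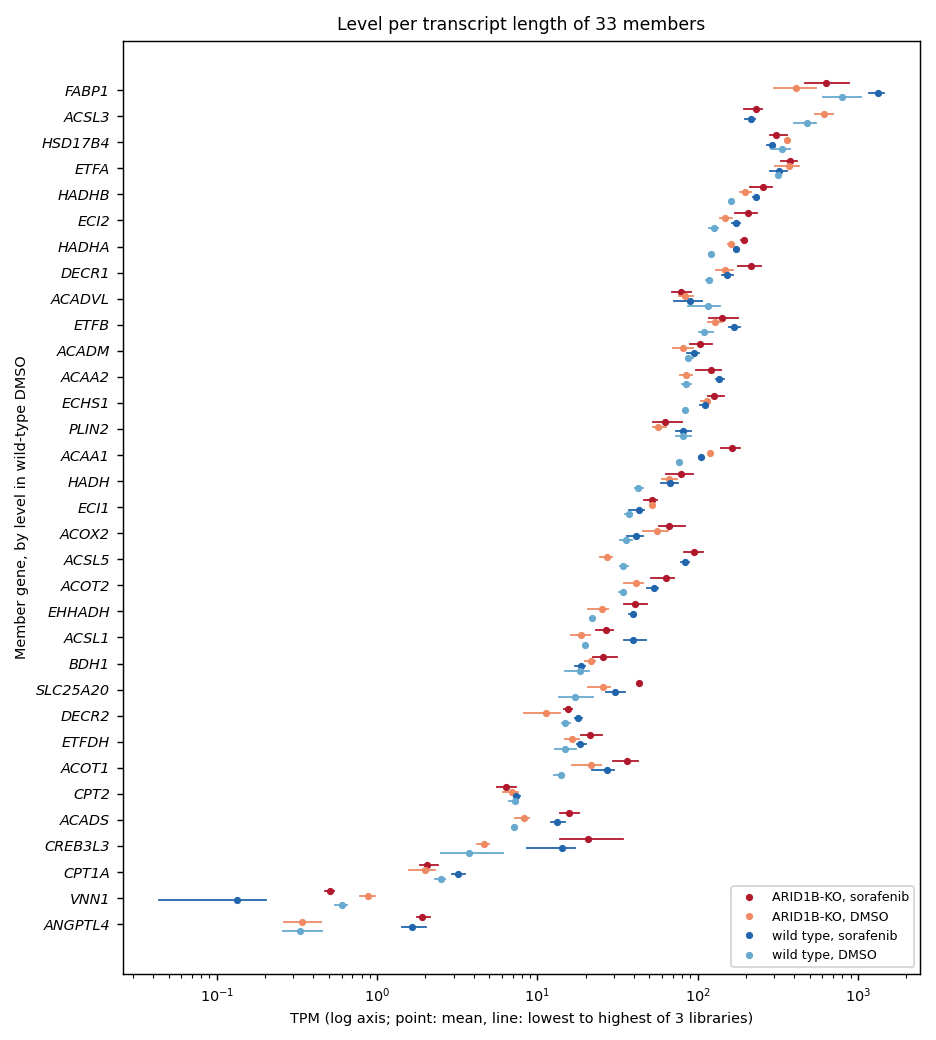
Level of the 33 tested members in TPM (x axis, log scale), ordered by the mean in wild-type cells with DMSO (y axis). Points are group means and lines run from the lowest to the highest of 3 libraries, in the 4 groups. In wild-type cells with DMSO, FABP1 is highest at a mean of 795 TPM and ANGPTL4 lowest at 0.329 TPM.

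Between ARID1B-KO and wild-type cells, members differed in both directions. With sorafenib, 8 members were higher and 5 lower in ARID1B-KO than in wild-type cells, 13 of 33 tested, where 27% of all genes were called, 13.2% as higher and 13.8% as lower. With DMSO, 9 were higher and 5 lower, where 27.8% of all genes were called, 14.3% as higher and 13.5% as lower. The shares of members, 39.4% and 42.4%, stood above these backgrounds, but the median log2 fold changes were small, 0.17 with sorafenib and 0.12 with DMSO, beside -0.00 and 0.01 over all genes. Because the members were chosen with earlier results of these data known, the shares are only described. Under every alternative processing, 7 of the 13 calls with sorafenib and 8 of the 14 with DMSO held. Groups did not overlap for 23 members with sorafenib, where 42.7% of all genes did not, and for 17 with DMSO, where 42.2% did not. SLC25A20, ACOX2, ACAA1, ACOT1 and CREB3L3 were higher under both treatments, and CPT1A, ACADVL, PLIN2 and FABP1 lower under both. The 2 comparisons rest on different libraries, but all 12 shared the estimate of the spread.

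**Figure D4:**
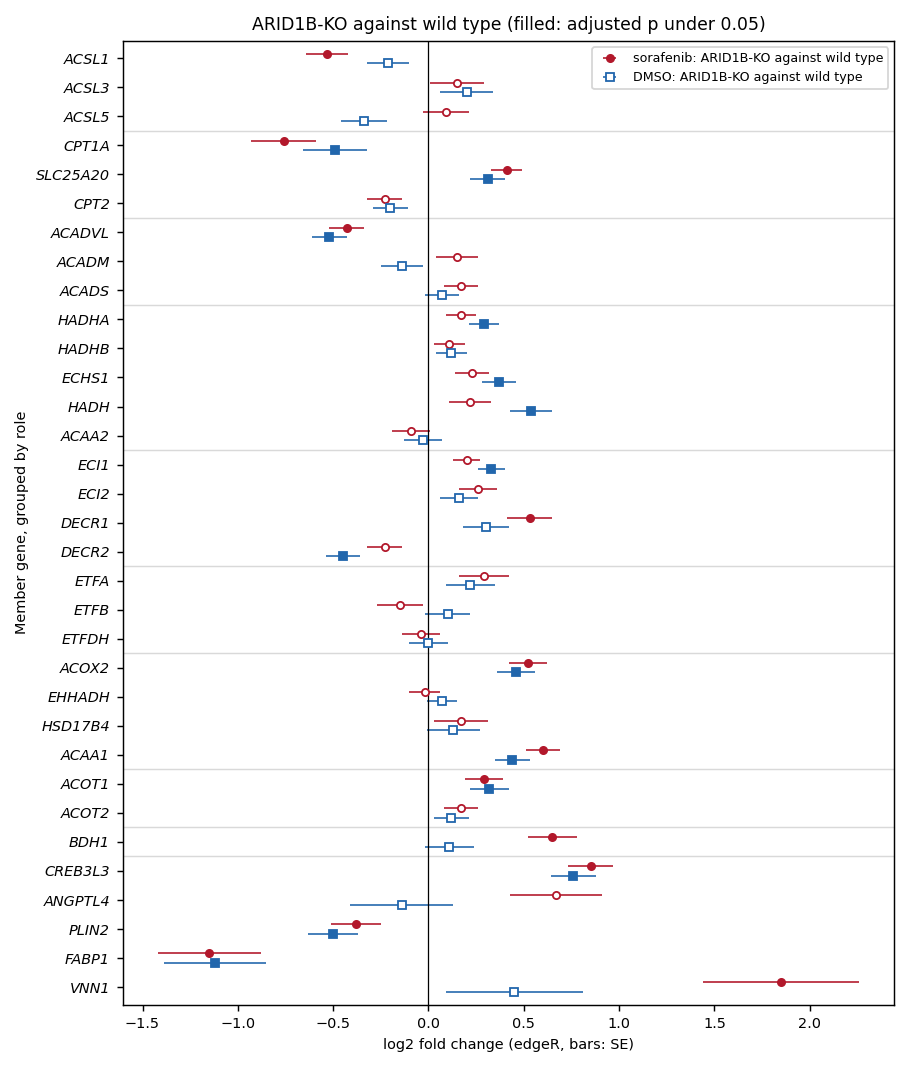
Difference between ARID1B-KO and wild-type cells as a log2 fold change (x axis) for the 33 tested members, grouped by role (y axis), with sorafenib (circles) and with DMSO (squares). Bars are SE, and filled symbols have an adjusted p under 0.05. FABP1 lies farthest to the left under both treatments, and VNN1 with sorafenib farthest to the right at 1.85.

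Of the members, FABP1 was lowest in ARID1B-KO cells relative to wild type, with log2 fold changes of -1.15 ± 0.27 with sorafenib and -1.12 ± 0.27 with DMSO (edgeR, adjusted p 0.00921 and 0.0108), and no ARID1B-KO library reached the wild-type libraries of its treatment. CPT1A had log2 fold changes of -0.76 ± 0.17 with sorafenib (adjusted p 0.00523, no overlap) and -0.49 ± 0.17 with DMSO, where the groups overlapped and the adjusted p was 0.04997. The DMSO call of CPT1A was lost with DESeq2's size factors, without the filter, with the length offset, with the replicate block or with only these groups in the fit (0.0534 to 0.177). It was also lost without wild-type DMSO replicate 2 or 3, any wild-type sorafenib replicate, ARID1B-KO DMSO replicate 2 or 3, or ARID1B-KO sorafenib replicate 2 (0.0501 to 0.184). ACADVL was at 89.9, 77.5 and 93.7 CPM in ARID1B-KO cells with sorafenib, against 117, 119 and 116 CPM in wild-type cells with sorafenib. With DMSO it was at 83.7, 97.4 and 89.8 CPM in ARID1B-KO cells, against 119, 126 and 143 CPM in wild-type cells. Its groups did not overlap, with log2 fold changes of -0.43 ± 0.09 and -0.52 ± 0.09 (edgeR, adjusted p 0.00471 and 0.00143). With the length offset they were -0.19 and -0.53 and no longer called (adjusted p 0.498 and 0.0561 in edgeR).

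PLIN2 was at 77.7, 80.7 and 108 CPM in ARID1B-KO cells with sorafenib, against 116, 108 and 123 CPM in wild-type cells with sorafenib. With DMSO it was at 77.9, 71.8 and 84.2 CPM in ARID1B-KO cells, against 126, 100.5 and 104 CPM in wild-type cells. The groups did not overlap, although with sorafenib their closest libraries were almost equal, and the log2 fold changes were -0.38 ± 0.13 and -0.50 ± 0.13 (edgeR, adjusted p 0.0399 and 0.0113). The call with sorafenib was lost with the length offset (0.101), with only these groups in the fit (0.0525), and without any wild-type sorafenib replicate or ARID1B-KO sorafenib replicate 1 or 2 (0.0534 to 0.148). DECR2 was lower with DMSO (log2 fold change -0.45 ± 0.09, adjusted p 0.00223), and ACSL1 with sorafenib (-0.53 ± 0.11, adjusted p 0.00282). With sorafenib DECR2 was lower without overlap but not called (-0.23 ± 0.09, adjusted p 0.065 in edgeR). With DMSO the ACSL1 groups overlapped (-0.21 ± 0.11, adjusted p 0.177).

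Among the members higher in ARID1B-KO cells, CREB3L3 had log2 fold changes of 0.85 ± 0.12 with sorafenib and 0.76 ± 0.12 with DMSO (edgeR, adjusted p 0.000194 and 0.000675), with no overlap. These calls were lost with the length offset, where the values were 0.57 ± 0.44 and 0.26 ± 0.45 (SE), with adjusted p of 0.406 and 0.73 in edgeR. ACAA1 was at 260.5, 289 and 316 CPM in ARID1B-KO cells with sorafenib, against 189.6, 185 and 194 CPM in wild-type cells with sorafenib. With DMSO ACAA1 was at 184, 174 and 187 CPM in ARID1B-KO cells, against 141, 135 and 125 CPM in wild-type cells. The groups were apart, with log2 fold changes of 0.60 ± 0.09 and 0.44 ± 0.09 and adjusted p of 0.000277 and 0.00242 in edgeR. ACOX2 was higher by 0.52 ± 0.10 and 0.46 ± 0.10, and SLC25A20 by 0.41 ± 0.08 and 0.31 ± 0.09. The SLC25A20 calls were lost with the length offset (0.0533 and 0.0567), and the call with DMSO also with only these groups in the fit (0.0552) and without wild-type DMSO replicate 2 or ARID1B-KO DMSO replicate 2 or 3 (0.052 to 0.0816). ACOT1 was higher by 0.29 ± 0.10 and 0.32 ± 0.10, but counted together with ACOT2 the difference was 0.22 and 0.19 and was not called (adjusted p 0.109 and 0.15). Under sorafenib the ACOT1 call was also lost without the filter, with the length offset, with the replicate block, and without any wild-type library or any ARID1B-KO library with sorafenib (0.0504 to 0.168). With DMSO it was lost with only these groups in the fit (0.0709) and without wild-type DMSO replicate 2 or 3, wild-type sorafenib replicate 3 or ARID1B-KO DMSO replicate 2 or 3 (0.0501 to 0.127).

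HADH, which passed with DMSO alone, was at 89.5, 103 and 113 CPM in ARID1B-KO cells with sorafenib, against 92, 76.6 and 93.8 CPM in wild-type cells with sorafenib. With DMSO it was at 81, 71.6 and 84.3 CPM in ARID1B-KO cells, against 59.9, 51.8 and 51.3 CPM in wild-type cells. The groups overlapped with sorafenib (0.22 ± 0.11, adjusted p 0.167 in edgeR) and were apart with DMSO (0.54 ± 0.11, adjusted p 0.00325). HADHA, ECHS1 and ECI1 also passed with DMSO, by 0.29 ± 0.08, 0.37 ± 0.09 and 0.33 ± 0.07, and the HADHA call was lost without wild-type DMSO replicate 3 (0.0523). With sorafenib these genes were higher too, by 0.17 ± 0.08, 0.23 ± 0.09 and 0.20 ± 0.07, and their groups did not overlap. They were not called there (edgeR, adjusted p 0.12, 0.0691 and 0.0595). DECR1, BDH1 and VNN1 passed with sorafenib, by 0.53 ± 0.12, 0.65 ± 0.13 and 1.85 ± 0.41, with adjusted p of 0.00498, 0.00332 and 0.0048 in edgeR. BDH1 was not called with the length offset (0.48 ± 0.19, adjusted p 0.113). With DMSO none of them was called. There DECR1 (0.30 ± 0.12, adjusted p 0.0736 in edgeR) and VNN1 (0.45 ± 0.36, 0.38) were higher without overlap, and BDH1 (0.11 ± 0.13, 0.595) overlapped.

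No member passed the test of the difference between the responses of the genotypes, 0 of 33 with edgeR and 0 with DESeq2, where 0.835% of all genes were called with edgeR. At an unadjusted p under 0.05 there were 4 members. The response in ARID1B-KO minus that in wild type was 0.54 ± 0.19 for BDH1, 1.40 ± 0.54 for VNN1, 0.43 ± 0.17 for ACSL5 and 0.81 ± 0.36 for ANGPTL4 (log2, SE), with adjusted p of 0.19, 0.226, 0.25 and 0.306 in edgeR. The others lay between -0.32 for HADH and ACSL1 and 0.29 for ACADM. The SE of this difference was 0.10 to 0.54 over the members, and the test does not show that the genotypes responded alike.

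Of 63 other genes of the pathway, 55 were tested, and their direction under sorafenib was mostly upward as well. In ARID1B-KO cells 30 rose and 8 fell, and in wild-type cells 27 rose and 9 fell, with median log2 fold changes of 0.38 and 0.27. The genes called were 69.1% and 65.5% of those tested, beside 46.7% and 35.4% of all genes. ARID1B-KO against wild type gave 14 higher and 6 lower with sorafenib and 10 higher and 9 lower with DMSO, with medians of 0.09 and 0.08. These calls were 36.4% and 34.5% of those tested, not far above the 27% and 27.8% of all genes. The difference of responses was called for TXNIP alone, 1.82% of those tested, beside 0.835% of all genes. The genes below the filter included ABCD2, ACADL, ACOT4, CPT1C, CYP4A22, G0S2 and FGF21, and FGF21, the fasting hormone of liver, had 0 counts throughout.

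The receptor pair itself rose. PPARA averaged 66.7 ± 4.56 CPM in ARID1B-KO cells with sorafenib, against 37.6 ± 6.01 CPM with DMSO, and 64.7 ± 6.55 CPM in wild-type cells with sorafenib, against 33.2 ± 3.72 CPM with DMSO, with log2 fold changes of 0.83 ± 0.12 and 0.96 ± 0.12. RXRA rose by 0.85 ± 0.10 in ARID1B-KO cells and 1.04 ± 0.10 in wild-type cells. PPARGC1A, a coactivator of oxidative genes, rose by 0.70 ± 0.08 on the log2 scale in ARID1B-KO cells (adjusted p 1.43e-05 in edgeR) and 0.23 ± 0.08 in wild-type cells (0.042), and was higher in ARID1B-KO than in wild-type cells with sorafenib by 0.61 ± 0.08, a call lost with the length offset (0.143). Its wild-type call was lost without the filter, with the length offset, with the replicate block or with only these groups in the fit (0.0602 to 0.629). It was also lost without wild-type DMSO replicate 2 or 3, any wild-type sorafenib replicate or ARID1B-KO sorafenib replicate 2 (0.0554 to 0.156). The difference between its responses was 0.48 ± 0.11, with an adjusted p of 0.0616 in edgeR and 0.00517 in DESeq2. DESeq2 also called the difference between responses for ACSL4 (0.00268), ACADSB (0.000589) and SLC27A1 (0.0443), where edgeR gave 0.116, 0.0873 and 0.127.

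Other peroxisomal genes also rose. CAT, the catalase that removes the hydrogen peroxide of acyl-CoA oxidation, rose by 0.98 ± 0.09 in ARID1B-KO cells and 1.14 ± 0.09 in wild-type cells. PHYH, which starts the breakdown of phytanic acid, rose by 1.16 ± 0.12 and 0.93 ± 0.12, and was higher in ARID1B-KO than in wild-type cells with sorafenib by 0.54 ± 0.12, a call lost with the length offset (adjusted p 0.0677 in edgeR).

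Uptake and activation genes varied. CD36, a fatty acid translocase, averaged 25.2 ± 6.57 CPM in ARID1B-KO cells with sorafenib, against 6.96 ± 1.4 CPM with DMSO, and 8.95 ± 1.07 CPM in wild-type cells with sorafenib, against 2.07 ± 0.4 CPM with DMSO. It rose with sorafenib by 1.86 ± 0.21 and 2.12 ± 0.23, and was higher in ARID1B-KO cells by 1.50 ± 0.21 with sorafenib and 1.75 ± 0.23 with DMSO. ACSL4, a synthetase for polyunsaturated acids, fell with sorafenib, at -1.02 ± 0.10 in ARID1B-KO cells and -0.55 ± 0.10 in wild-type cells, and was higher in ARID1B-KO cells with DMSO by 0.63 ± 0.10. SLC27A1, a fatty acid transport protein, was lower in ARID1B-KO cells with DMSO, at -1.70 ± 0.25, and rose with sorafenib in ARID1B-KO cells by 1.12 ± 0.25, with -0.06 ± 0.24 in wild-type cells. SLC27A5, the transport protein and bile acid ligase of liver, was lower in ARID1B-KO cells, at -0.85 ± 0.13 with sorafenib and -0.56 ± 0.13 with DMSO. ACAD11, an acyl-CoA dehydrogenase, rose with sorafenib by 1.36 ± 0.14 and 0.98 ± 0.14 and was higher in ARID1B-KO cells by 0.93 ± 0.14 with sorafenib and 0.55 ± 0.14 with DMSO, the last call being lost with the length offset (adjusted p 0.138 in edgeR). ACADSB, the dehydrogenase for short branched chains, was higher in ARID1B-KO cells by 0.29 ± 0.09 with sorafenib and 0.76 ± 0.09 with DMSO, and rose with sorafenib in wild-type cells by 0.64 ± 0.09. Its call between genotypes with sorafenib was lost with only these groups in the fit (0.0654) and without any wild-type sorafenib replicate or ARID1B-KO sorafenib replicate 2 or 3 (0.0567 to 0.0918).

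The deposited tables also give transcripts, and the makeup of a gene could differ where its sum did not. Shares of a gene's TPM are estimates that rest on the few reads able to tell transcripts apart, and the transcripts named here were chosen after their values were seen, so the shares are described with no test. Of 60 transcripts from 31 members with a mean share of at least 10%, 5 (8.33%) had shares that did not overlap between the 6 ARID1B-KO and the 6 wild-type libraries, beside 4.5% of 23680 such transcripts over all genes. They were ACOT1-201, ACOT1-202, HADH-210, HADHB-201 and HADHB-209. Within ACOT1 and within HADHB, the share of one transcript falls as that of the other rises, so these are not independent differences. ACOT1-202 had 0 to 30 counts in wild-type libraries with DMSO and 7 to 90 with sorafenib, and ACOT1 shares 42.1% of its 75-base windows with ACOT2. Between the 6 sorafenib and the 6 DMSO libraries, 2 (3.33%), ACOX2-207 and ACSL5-203, did not overlap, beside 0.443%.

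HADHB-201, which starts at base 26244939 of chromosome 2, the RefSeq start used above, held 40.9%, 10.5% and 32.7% of HADHB in ARID1B-KO cells with sorafenib, against 77.2%, 97.2% and 71.8% in wild-type cells with sorafenib. With DMSO it held 14.7%, 35% and 17.6% in ARID1B-KO cells, against 71.6%, 72.8% and 76.7% in wild-type cells. HADHB-209, annotated from base 26261021 onward, held the larger share in ARID1B-KO cells, from 58.1% to 86% with sorafenib and 60.4% to 80% with DMSO, against 0% to 24.3% with sorafenib and 21.7% to 24.9% with DMSO in wild-type cells, where it is listed at 0% in 1 library. The summed level of HADHB did not pass the test between the genotypes (0.11 ± 0.08 with sorafenib and 0.12 ± 0.08 with DMSO). ACSL5-203 held 6.32%, 4.33% and 3.83% of ACSL5 in ARID1B-KO cells with sorafenib, against 18.9%, 15.3% and 13.3% with DMSO. In wild-type cells it held 7.56%, 7.52% and 4.15% with sorafenib, against 16.6%, 30.3% and 26% with DMSO. The counts of ACSL5-203 were 156 to 405 in ARID1B-KO cells with sorafenib, against 158 to 288 with DMSO, and 208 to 477 in wild-type cells with sorafenib, against 454 to 674 with DMSO. These counts overlapped between sorafenib and DMSO in both genotypes.

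**Figure D5:**
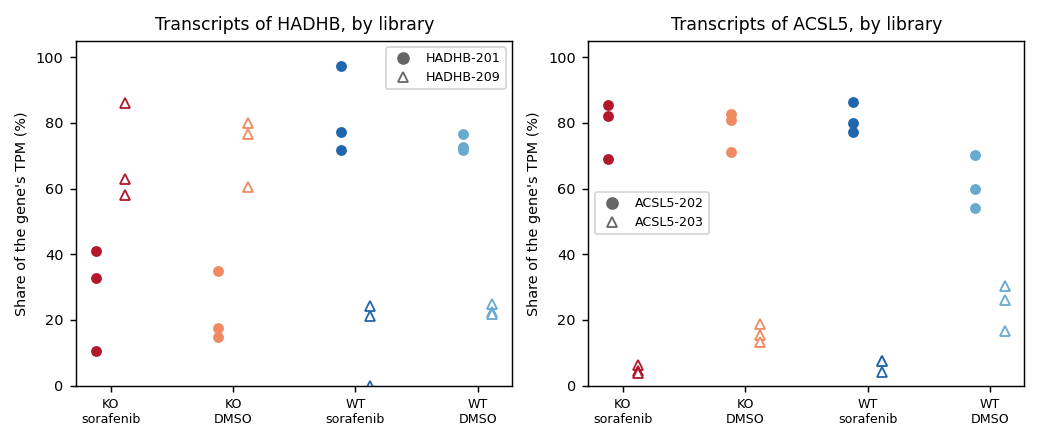
Share of the gene's TPM in percent (y axis) held by each of 2 transcripts of HADHB (left) and of ACSL5 (right) in each library (points), for ARID1B-KO (KO) and wild-type (WT) cells with sorafenib or DMSO. HADHB-201 lies at or below 40.9% in ARID1B-KO libraries and at or above 71.6% in wild-type libraries, and ACSL5-203 is lower with sorafenib.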

How the data were processed

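RNA-seq was done on 12 libraries, 3 in each of 4 groups, from 750 ng of total RNA with polyA selection, 9 PCR cycles and paired reads of 75 bases, per the labels' protocols. The authors deposited, for each library, estimated counts per transcript from Salmon, with no version stated in the labels. The authors' same tables give TPM, the abundance of each transcript scaled for its length and the library total. The submitters' processing notes name GRCh38 and DESeq2 1.46.0, and the design text names Ensembl 109. Whether counting used the strand is not stated there.

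Estimated counts were summed to 35810 genes through GENCODE 44 and rounded. Of 177456 transcripts, 165533 (93.3%) matched, and the other 11923 held 2.87% to 3.20% of the counts and were left out. CPM was scaled by TMM. Genes past edgeR's expression filter (12821) were tested with edgeR 4.0.16 in R 4.3.3 by the quasi-likelihood F test, with Benjamini-Hochberg adjustment over all of them, in 1 fit of 4 group means, a common biological coefficient of variation of 0.152 and a threshold of 0.05. The SE of a log2 fold change was derived from its F statistic.

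Alternatives were DESeq2 size factors, DESeq2 1.42.0, no filter, a length offset, a replicate block, only the groups compared, ACOT1 and ACOT2 counted together, and each library left out. Values in every library are given for the 6 called members with the largest change in each comparison, for BDH1 and CPT1A and for ACOT1 and ACOT2. Gene members and lists were chosen with earlier results of these data known. Deviations of same-numbered libraries had low correlations (-0.12 to 0.18), which do not settle whether the replicate numbers pair libraries. Some genes of the wider pathway list are counted in its totals and not reported here. Promoter sequences are those of RefSeq on GRCh38.p14. Depth, 19739582 to 29398257 counts per library, limits low genes most, and floors for a count of 0 (3 counts) cover counting error only.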

Additional observations from a re-analysis of the deposited data

Results flagged for a closer look

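TXNIP, which restrains glucose uptake and binds thioredoxin, was listed among the other genes of the pathway, and its response to sorafenib differed between the genotypes in a test of the difference itself. It was at 37.3, 34.5 and 41.8 CPM in ARID1B-KO cells with sorafenib, against 40.7, 44.6 and 47.2 CPM with DMSO. In wild-type cells it was at 35, 27.6 and 29.8 CPM with sorafenib, against 61, 56.6 and 60.2 CPM with DMSO. The groups overlapped in ARID1B-KO cells (log2 fold change -0.22 ± 0.10) and did not in wild-type cells, where TXNIP fell (-0.94 ± 0.10). The response in ARID1B-KO minus that in wild type was 0.72 ± 0.14, with an adjusted p of 0.0414 in edgeR. Over 17 alternatives the value lay between 0.64 and 0.82 with an adjusted p of 0.000333 to 0.188, and it was called in 4 of them. Leaving out any library other than wild-type sorafenib replicate 1 ended the call (0.055 to 0.116). The length offset (0.188) and the replicate block (0.067) also ended it.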

How the results depend on the processing

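With the offset for transcript length, the count of all genes called was 4092 (5982 in the main analysis) for sorafenib in ARID1B-KO cells, 2867 (4543) in wild-type cells, 2189 (3563) for ARID1B-KO against wild type with DMSO, 2046 (3463) with sorafenib and 2 (107) for the difference of responses. Members called between the genotypes with sorafenib then numbered 7, 4 higher and 3 lower, in place of 13. The difference of responses was called for 555 genes with DESeq2 and 19 with the replicate block, and for 5 to 138 when 1 library was left out, but for 0 members in every alternative. With 1 library left out, members called numbered 21 to 25 for sorafenib in ARID1B-KO cells, 23 to 26 in wild-type cells, 11 to 14 between genotypes with sorafenib and 11 to 15 with DMSO. Under the other alternatives these counts were 21 to 25, 20 to 26, 7 to 18 and 11 to 15 in that order. Members called under every alternative were 19 of 25, 20 of 26, 7 of 13 and 8 of 14. No member called in the main analysis changed direction in any alternative. With the replicate block, members called numbered 24, 24, 12 and 14 in the same order. Deviations of same-numbered libraries had low correlations (-0.12 to 0.18), which do not settle whether the numbers pair them. The fit of the compared groups alone could not be made for the difference of responses, and CYP4A11 counted with CYP4A22 gave no value. The cause of these changes was not tested. Low genes such as VNN1 and ANGPTL4 rest on few counts.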
